A study of Mus musculus with 6 samples.

Results

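The HoxC cluster of the mouse holds 9 protein-coding genes, Hoxc4, Hoxc5, Hoxc6, Hoxc8, Hoxc9, Hoxc10, Hoxc11, Hoxc12 and Hoxc13. All 9 were taken by symbol from the deposited expression table and are 9 of its 17312 genes. The study sequenced RNA from 6 mouse leg tumors, 3 with SS18-SSX2 and 3 with SS18-SSX1, the fusion oncoproteins of synovial sarcoma. Every tumor arose in a mouse with a Cre-lox inducible allele of its fusion, after TATCre, a Cre recombinase protein able to enter cells, was put into the soft tissue in front of the tibia, and was collected about 1 year later. There were no tumors without a fusion and no samples of normal leg tissue, so the comparison is between the 2 fusion genotypes only. TATCre acts on whichever cells take it up, and the labels name no cell type of origin. Nor do they give the mice's age or strain or say whether the tumors of a genotype came from separate mice, so the spread between them may be technical in part.

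Hox genes encode homeodomain transcription factors that give cells their position along the body axis and, in limbs, along the limb. Their order along the chromosome follows the order of their domains in the embryo, with low-numbered members active toward the head and high-numbered members toward the tail and the distal limb. The posterior HoxC genes are known for expression in the developing hindlimb and tail region, and many adult fibroblasts keep the Hox pattern of the place they come from. Polycomb complexes keep Hox clusters silent where they are not used, while Trithorax group proteins, which include BAF (SWI/SNF) complexes, oppose that silencing. SS18 is a subunit of BAF.

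The members are close relatives in sequence. In the GENCODE annotation the homeoboxes of the 5 posterior members, Hoxc9 to Hoxc13, are 180 bases long, and identity over their 10 pairs ran from 56.1% to 71.7%, highest for Hoxc9 with Hoxc10. The 30 bases that code for the core of the recognition helix, the part of the homeodomain that lies in the major groove of DNA, are shown for these 5, which held most of the HoxC RNA in every tumor. Capitals mark the 12 positions that are not the same in all 5, and the other 18 are the same.
Hoxc9: aAAatCtggttTcaGaaCCgGAgGAtgaaG
Hoxc10: aAAatCtggttTcaAaaTCgCAgAAtgaaA
Hoxc11: aAAatTtggttTcaGaaCAgGAgAAtgaaA
Hoxc12: aAGatTtggttCcaGaaCCgGAgAAtgaaA
Hoxc13: aCCatCtggttCcaGaaTCgACgCGtgaaA

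Exact runs of bases shared with other Hox genes were mostly short, but how many reads could be told apart was not tested. The longest run of bases shared exactly between exons of a member and of any other Hox gene was 18 to 50 bases, the longest of these between Hoxc9 and Hoxb9, apart from a run of 168 bases in Hoxc5 and Hoxc10. There the annotation gives Hoxc5 a far upstream exon that overlaps Hoxc10 over 166 bases, out of 3089 exon bases of Hoxc5 and 1909 of Hoxc10. No source used here says which gene such reads went to, and the values of Hoxc5 and Hoxc10 are uncertain to that extent.

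All 9 members had a lower mean level in SS18-SSX2 tumors, and 6 of them, Hoxc4, Hoxc6, Hoxc9, Hoxc10, Hoxc11 and Hoxc12, were lower in each of the 3 SS18-SSX2 tumors than in any SS18-SSX1 tumor. Among all 13873 tested genes, 48.9% had a lower mean log2 value in SS18-SSX2 tumors and 3.76% were lower without overlap. The differences were largest for Hoxc12, Hoxc11, Hoxc9 and Hoxc10 and smallest for Hoxc4, Hoxc13, Hoxc5 and Hoxc8. No member passed the test over all genes (limma on log2(FPKM + 1), Benjamini-Hochberg adjusted p from 0.465 to 0.997, threshold 0.05), and of all tested genes 9 did, which is 0.0649%, 3 of them lower in SS18-SSX2 tumors (0.0216%). At an unadjusted p under 0.05, 7 of the 9 members were lower in limma, against 237 of all tested genes, or 1.71%. With voom on recovered reads 6 of the 9 were lower. In either direction, the share of all tested genes at that level was 5.53% with voom and 4.97% in limma. The median log2 fold change (SS18-SSX2 minus SS18-SSX1) was -1.53 over the members and 0.01 over all tested genes.

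These counts are not 9 separate pieces of evidence, since the members varied together from tumor to tumor. Over the 6 tumors Pearson's r of log2(FPKM + 1) was above 0.8 in 29 of the 36 pairs of members, with a range of 0.45 to 0.994. The pairs with Hoxc13 ran from 0.45 to 0.81 and the 28 pairs without it from 0.82 to 0.994. The points of each pair share their libraries and the split between the genotypes, and the values are a description only.

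**Figure D1:**
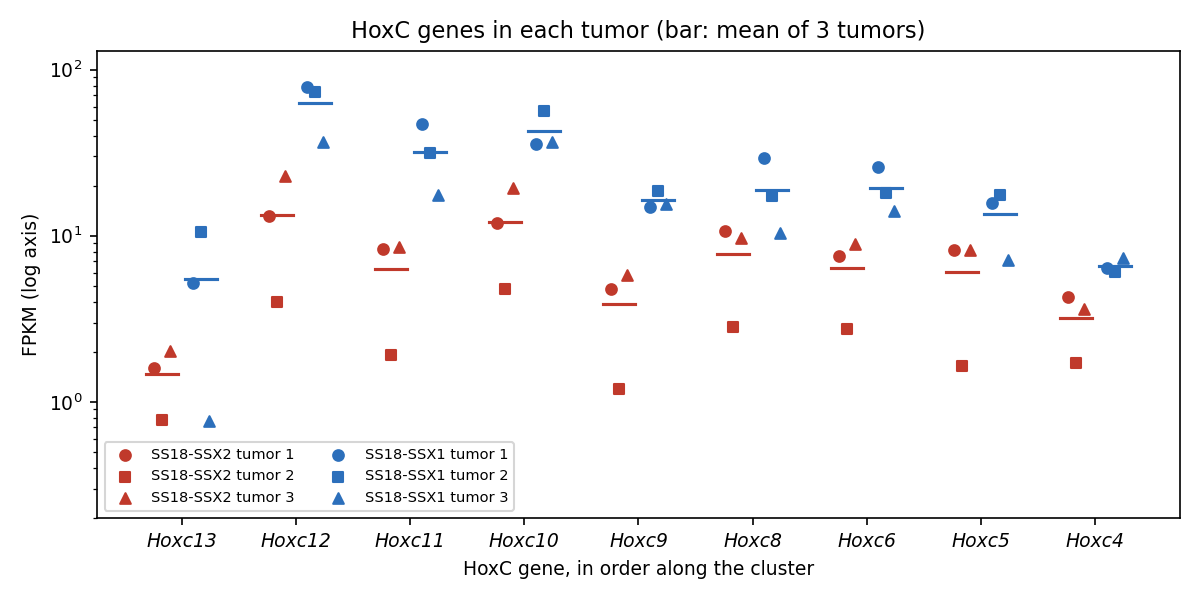
FPKM (log axis) of the 9 HoxC genes in each tumor, in the order of the genes along chromosome 15, with SS18-SSX2 tumors in red to the left of SS18-SSX1 tumors in blue and a bar at the mean of 3 tumors. The red points lie below all blue points for 6 genes, and SS18-SSX2 tumor 2 has the lowest value of 8 of the 9 genes.

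Hoxc12 and Hoxc13 lie at the posterior end of the cluster. Hoxc12 (ENSMUSG00000050328), at chr15:102936757-102938609 on the plus strand of GRCm38, had 13.2, 3.99 and 22.8 FPKM in SS18-SSX2 tumors 1, 2 and 3, against 78.8, 73.3 and 36.9 FPKM in SS18-SSX1 tumors 1, 2 and 3. FPKM is the number of sequenced fragments scaled to gene model length and library size. The highest SS18-SSX2 value stayed below the lowest SS18-SSX1 value, which was 1.62 times as high. The means were 13.3 ± 9.39 FPKM in SS18-SSX2 tumors and 63.0 ± 22.8 FPKM in SS18-SSX1 tumors (SD, n = 3 each), with a log2 fold change of -2.35 (SE 0.57, limma adjusted p = 0.564). Hoxc12 was the most abundant member in 5 of the 6 tumors.

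Hoxc13 (chr15:102921103-102928814), which in mice is needed for hair and nail formation, had the lowest mean of the members in both genotypes. It had 1.59, 0.781 and 2.01 FPKM in SS18-SSX2 tumors 1, 2 and 3, against 5.16, 10.5 and 0.764 FPKM in SS18-SSX1 tumors 1, 2 and 3. The groups overlapped, since SS18-SSX1 tumor 3 was level with SS18-SSX2 tumor 2. These lowest values rest on 14 reads in SS18-SSX2 tumor 2 (exact Poisson 95% interval 0.427 to 1.31 FPKM) and 33 reads in SS18-SSX1 tumor 3 (0.526 to 1.07 FPKM), and such intervals cover counting error only. The log2 fold change was -1.05 (SE 0.65, limma adjusted p = 0.997), and it was -0.45 without SS18-SSX1 tumor 2 and -1.81 without SS18-SSX1 tumor 3. Hoxc13 was the only member under 1 FPKM in any tumor, at 1 FPKM or more in 4 of 6.

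Hoxc11 and Hoxc10, next in the cluster, belong to paralog groups that pattern the limb, with Hox10 genes acting in its upper and Hox11 genes in its middle segment. Hoxc11 (ENSMUSG00000001656, chr15:102954427-102957708) had 8.34, 1.90 and 8.55 FPKM in SS18-SSX2 tumors 1, 2 and 3, against 46.8, 31.7 and 17.6 FPKM in SS18-SSX1 tumors 1, 2 and 3. All 3 SS18-SSX2 tumors were below all 3 SS18-SSX1 tumors, which averaged 5.11 times as much. Its means were 6.26 ± 3.78 FPKM in SS18-SSX2 tumors and 32.0 ± 14.6 FPKM in SS18-SSX1 tumors (SD, n = 3 each), with a log2 fold change of -2.27 (SE 0.54, limma adjusted p = 0.528).

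Hoxc10 (ENSMUSG00000022484, chr15:102966796-102971893) had 12.0, 4.75 and 19.4 FPKM in SS18-SSX2 tumors 1, 2 and 3, against 35.6, 56.4 and 36.8 FPKM in SS18-SSX1 tumors 1, 2 and 3. The groups did not overlap, and SS18-SSX1 tumor 2 stood above the other two of its genotype. The log2 fold change was -1.90 (SE 0.46, limma adjusted p = 0.564). Hoxc10 was the most abundant member in SS18-SSX2 tumor 2 and the next after Hoxc12 in SS18-SSX2 tumors 1 and 3 and SS18-SSX1 tumors 2 and 3.

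Hoxc9, a trunk-level gene that in the mouse spinal cord helps set the identity of thoracic motor neurons, separated the genotypes with the widest gap among the members. Hoxc9 (ENSMUSG00000036139, chr15:102976439-102985099) had 4.76, 1.19 and 5.76 FPKM in SS18-SSX2 tumors 1, 2 and 3, against 14.9, 18.5 and 15.6 FPKM in SS18-SSX1 tumors 1, 2 and 3. Its lowest SS18-SSX1 tumor was 2.59 times its highest SS18-SSX2 tumor, and its SS18-SSX1 tumors lay within a factor of 1.24 of each other. The means were 3.90 ± 2.40 FPKM in SS18-SSX2 tumors and 16.3 ± 1.89 FPKM in SS18-SSX1 tumors (SD, n = 3 each). The log2 fold change was -1.97 (SE 0.44), and the limma adjusted p of 0.465 (unadjusted p = 0.00208) was the smallest among the members, at rank 62 of all tested genes.

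Hoxc8 and Hoxc6 are the central members, which pattern the trunk of the embryo and the spinal cord at forelimb and thoracic levels. Hoxc8 (ENSMUSG00000001657, chr15:102990607-102994111) had 10.7, 2.81 and 9.76 FPKM in SS18-SSX2 tumors 1, 2 and 3, against 29.2, 17.3 and 10.4 FPKM in SS18-SSX1 tumors 1, 2 and 3. The groups met at SS18-SSX1 tumor 3, which lay just under SS18-SSX2 tumor 1 and within its counting interval (9.58 to 11.8 FPKM). The log2 fold change was -1.24 (SE 0.52, limma adjusted p = 0.990), and without SS18-SSX2 tumor 2 it was -0.72.

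Hoxc6 (ENSMUSG00000001661, chr15:102998257-103011881) had 7.54, 2.74 and 8.91 FPKM in SS18-SSX2 tumors 1, 2 and 3, against 25.8, 18.0 and 14.1 FPKM in SS18-SSX1 tumors 1, 2 and 3. No SS18-SSX2 tumor reached the lowest SS18-SSX1 tumor. The means were 6.40 ± 3.24 FPKM in SS18-SSX2 tumors and 19.3 ± 5.97 FPKM in SS18-SSX1 tumors (SD, n = 3 each), with a log2 fold change of -1.53 (SE 0.42, limma adjusted p = 0.608).

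Hoxc5 and Hoxc4 lie at the anterior end and belong to the paralog groups of the neck and upper trunk. Hoxc5 (ENSMUSG00000022485), annotated at chr15:102967443-103017429 because of its far upstream exon, had 8.15, 1.64 and 8.23 FPKM in SS18-SSX2 tumors 1, 2 and 3, against 15.7, 17.7 and 7.12 FPKM in SS18-SSX1 tumors 1, 2 and 3. SS18-SSX1 tumor 3 lay between the SS18-SSX2 tumors, so the groups overlapped. The log2 fold change was -1.17 (SE 0.56, limma adjusted p = 0.997), and without SS18-SSX2 tumor 2 it was -0.57.

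Hoxc4 (ENSMUSG00000075394, chr15:103018934-103036852) had 4.25, 1.72 and 3.60 FPKM in SS18-SSX2 tumors 1, 2 and 3, against 6.37, 6.02 and 7.31 FPKM in SS18-SSX1 tumors 1, 2 and 3. It had the smallest change of the members, a log2 fold change of -0.90 (SE 0.33, limma adjusted p = 0.844), and was the only member with its highest value in SS18-SSX1 tumor 3. The groups did not overlap, but the gap was narrow, with the lowest SS18-SSX1 tumor 1.42 times the highest SS18-SSX2 tumor, and after rescaling to TPM they did. Its SS18-SSX1 tumors were the most even of any member, with the highest 1.21 times the lowest.

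Ordered by mean level per length, the members ran Hoxc12, Hoxc10, Hoxc8, Hoxc6, Hoxc11, Hoxc5, Hoxc9, Hoxc4 and Hoxc13 in SS18-SSX2 tumors, and Hoxc12, Hoxc10, Hoxc11, Hoxc6, Hoxc8, Hoxc9, Hoxc5, Hoxc4 and Hoxc13 in SS18-SSX1 tumors. Each gene's mean differed from that of its neighbour in these orders by less than the larger SD of the pair, except for Hoxc4 over Hoxc13 in SS18-SSX2 tumors and Hoxc5 over Hoxc4 in SS18-SSX1 tumors. That SD is between tumors, which moved most members together, and does not measure how steady the order was within tumors. Hoxc10 stood above Hoxc6 and Hoxc8 in every tumor, while other members such as Hoxc9 changed place. Within SS18-SSX2 tumors the highest value of a member was 2.48 to 5.70 times the lowest. Within SS18-SSX1 tumors that ratio was 1.21 for Hoxc4, 1.24 for Hoxc9 and up to 13.7 for Hoxc13.

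The make-up of HoxC RNA within a tumor is a ratio of genes in one library and does not depend on how the libraries were scaled. Hoxc9 to Hoxc13 together, a group chosen after the values were seen, held 56.6%, 58.6% and 65.7% of the summed HoxC FPKM in SS18-SSX2 tumors 1, 2 and 3, against 70.2%, 76.3% and 73.5% in SS18-SSX1 tumors 1, 2 and 3. The shares did not overlap and averaged 60.3 ± 4.80% in SS18-SSX2 tumors and 73.3 ± 3.09% in SS18-SSX1 tumors (SD, n = 3 each). The ratio of Hoxc12 to Hoxc6 was 1.75, 1.46 and 2.56 in SS18-SSX2 tumors 1, 2 and 3, against 3.06, 4.08 and 2.63 in SS18-SSX1 tumors 1, 2 and 3. Here SS18-SSX1 tumor 3 and SS18-SSX2 tumor 3 were close to each other. No test was made of these shares, since the genes summed were chosen with their values known.

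**Figure D2:**
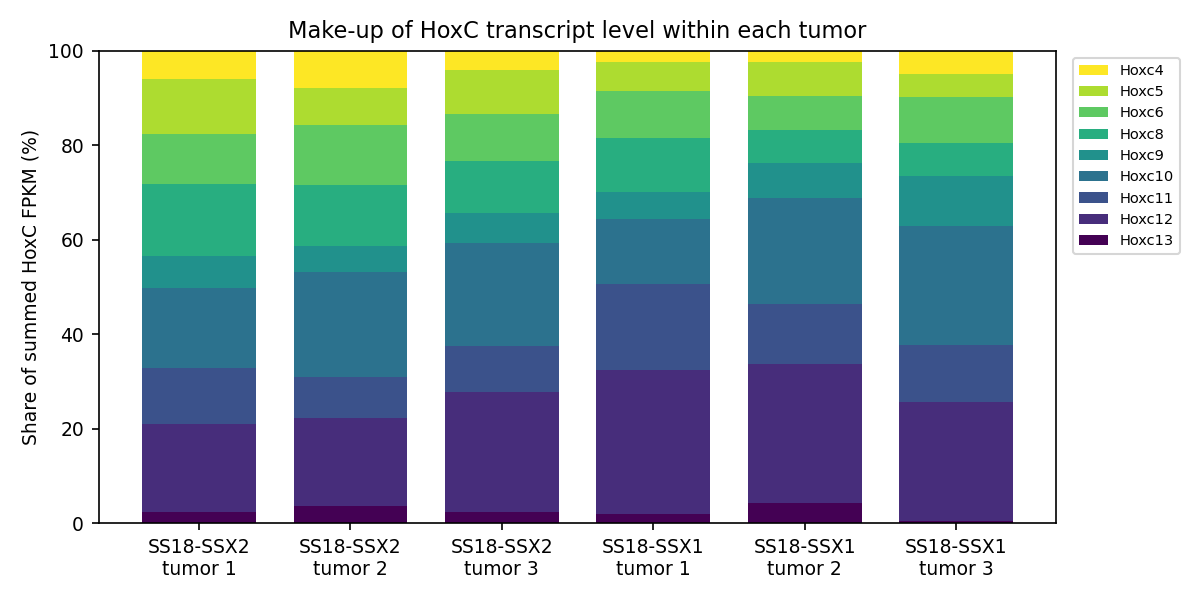
Share (%) of the summed FPKM of the 9 HoxC genes held by each gene, stacked from Hoxc13 at the bottom to Hoxc4 at the top, in SS18-SSX2 tumors 1 to 3 and then SS18-SSX1 tumors 1 to 3. Hoxc9 to Hoxc13 together reach 56.6% to 65.7% in SS18-SSX2 tumors and 70.2% to 76.3% in SS18-SSX1 tumors.

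Of the 16 genes annotated between the ends of the cluster, 11 are in the table, the 9 members and the noncoding genes Hotair and Mir196a-2. Hotair is a long noncoding RNA transcribed from the strand opposite to the HoxC genes, between Hoxc12 and Hoxc11 (chr15:102944062-102947730), and its human counterpart is known for binding Polycomb proteins. Hotair had 1.61, 0.153 and 0.801 FPKM in SS18-SSX2 tumors 1, 2 and 3, against 11.2, 5.09 and 3.09 FPKM in SS18-SSX1 tumors 1, 2 and 3. Like Hoxc11 and Hoxc12 beside it, Hotair was lower in all SS18-SSX2 tumors. Its lowest value rests on 3 reads, the smallest count that fits (95% interval 0.0315 to 0.446 FPKM). The means were 0.854 ± 0.729 FPKM in SS18-SSX2 tumors and 6.46 ± 4.22 FPKM in SS18-SSX1 tumors (SD, n = 3 each), with a log2 fold change of -1.94 (SE 0.49, limma adjusted p = 0.578). As a ratio to Hoxc11 within the tumor, Hotair stood at 0.193, 0.0803 and 0.0937 in SS18-SSX2 tumors 1, 2 and 3, against 0.239, 0.161 and 0.175 in SS18-SSX1 tumors 1, 2 and 3, which overlap. No source used here says whether counting used strand, and without it reads of Hotair and of any transcript from the other strand cannot be told apart.

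Mir196a-2 lies between Hoxc10 and Hoxc9 (chr15:102973350-102973434) and gives rise to miR-196a, a microRNA known to repress Hox mRNAs, Hoxb8 above all. Its gene had 5.01, 1.25 and 5.07 FPKM in SS18-SSX2 tumors 1, 2 and 3, against 9.56, 14.5 and 2.59 FPKM in SS18-SSX1 tumors 1, 2 and 3. The groups overlapped, and the values rest on 1 to 22 reads, the smallest counts that fit (limma log2 fold change -0.95, SE 0.62, adjusted p = 0.997). Libraries of total RNA of this kind read the transcript that contains the hairpin, and the mature microRNA was not measured. The mature sequence is shown with its seed, bases 2 to 8, in capitals (RefSeq, GRCm38.p6, chr15:102973365-102973386, plus strand), because the letters of the seed can be looked for in the members' mRNAs.
mmu-miR-196a-5p: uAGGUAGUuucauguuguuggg
The 7-base complement of the seed, ACTACCT, was searched on the sense strand of annotated 3′ UTRs. Among the members it was found in Hoxc8, at 2 places, starting at bases 135 and 892 of a UTR of 966 bases, where it is in capitals within 22 bases of mRNA sequence.
Hoxc8 at 135: cactcacaactctaACTACCTg
Hoxc8 at 892: taaatctttaacatACTACCTa
Of the 1288 annotated 3′ UTRs with a length within 10% of that of Hoxc8, 3.7% hold the 7 bases. A match of letters describes the sequence and is not a measured site.

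The protein-coding genes on either side of the cluster had smaller fold changes than any member. The nearest in the table were Calcoco1, 199 kb before Hoxc13, and Smug1, a uracil-DNA glycosylase, 116 kb after Hoxc4. Of the 5 nearest on each side, 8 were tested, and their log2 fold changes lay between -0.38 and 0.15 with a median of -0.20. None was called and none had an unadjusted p under 0.05 in limma. Smug1 was the only one of the 8 whose groups did not overlap, with 7.95, 6.90 and 7.90 FPKM in SS18-SSX2 tumors 1, 2 and 3, against 8.77, 8.70 and 11.8 FPKM in SS18-SSX1 tumors 1, 2 and 3. Cbx5, which encodes the heterochromatin protein HP1 alpha, averaged 45.7 ± 14.3 FPKM in SS18-SSX2 tumors and 48.2 ± 7.88 FPKM in SS18-SSX1 tumors (SD, n = 3 each), with a log2 fold change of -0.11 (SE 0.30, limma adjusted p = 0.997).

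**Figure D3:**
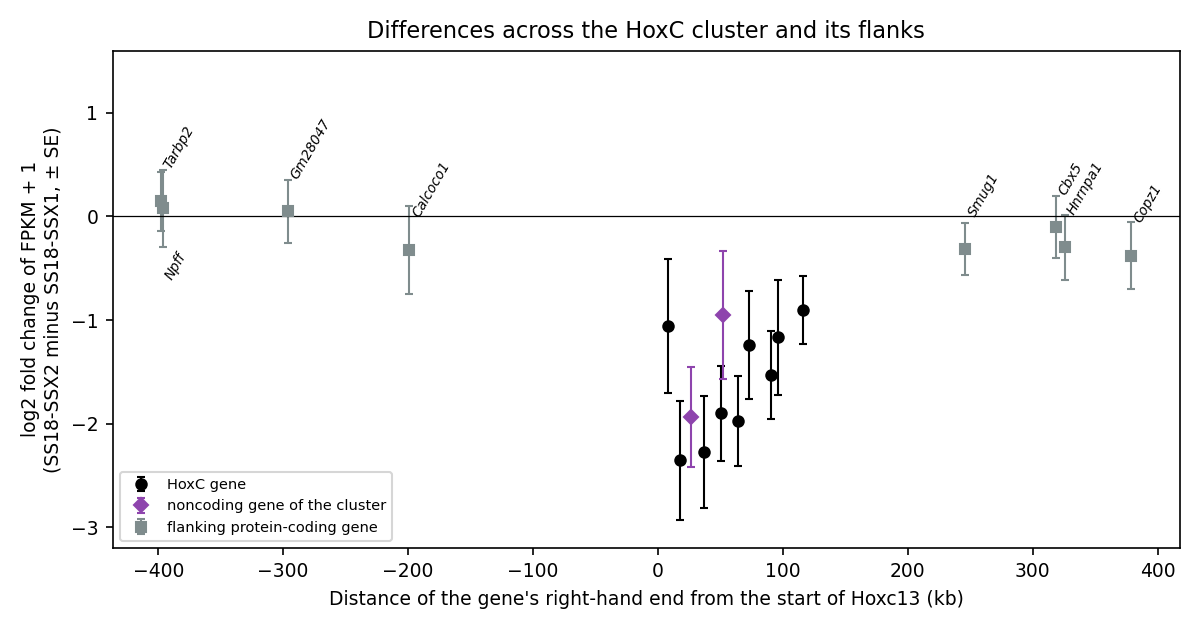
Log2 fold change of FPKM + 1 (SS18-SSX2 minus SS18-SSX1, with its SE) against the distance in kb of each gene's right-hand end from the start of Hoxc13, for the HoxC genes, Hotair and Mir196a-2, and the tested flanking genes. The HoxC genes lie between -2.35 and -0.90 and the flanking genes between -0.38 and 0.15.

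HoxC was the most abundant of the 4 Hox clusters in every tumor. The summed FPKM of the cluster was 70.5, 21.5 and 88.9 in SS18-SSX2 tumors 1, 2 and 3, against 258, 249 and 147 in SS18-SSX1 tumors 1, 2 and 3. These sums made up 54.2%, 70.3% and 58.8% of all Hox FPKM in SS18-SSX2 tumors 1, 2 and 3, against 48.2%, 59.7% and 66.4% in SS18-SSX1 tumors 1, 2 and 3. The share of HoxC overlapped between the genotypes although the sum did not.

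The other clusters differed in how SS18-SSX1 tumor 3 stood. The HoxB sum was 19.8, 1.65 and 27.8 FPKM in SS18-SSX2 tumors 1, 2 and 3, against 82.2, 89.5 and 53.9 FPKM in SS18-SSX1 tumors 1, 2 and 3, without overlap, as for HoxC. For HoxA the sums were 26.04, 4.87 and 20.4 FPKM in SS18-SSX2 tumors 1, 2 and 3, against 96.6, 37.5 and 8.64 FPKM in SS18-SSX1 tumors 1, 2 and 3. For HoxD they were 13.8, 2.58 and 14.1 FPKM in SS18-SSX2 tumors 1, 2 and 3, against 98.9, 41.4 and 11.6 FPKM in SS18-SSX1 tumors 1, 2 and 3. SS18-SSX1 tumor 3 thus lay within the SS18-SSX2 range for HoxA and HoxD and above it for HoxB and HoxC. Every tested gene of the other clusters had a lower mean in SS18-SSX2 tumors, 8 in HoxA, 8 in HoxB and 6 in HoxD, with medians of -0.88, -1.56 and -1.36 in that order. Groups did not overlap for 7 of the 8 HoxB genes and for 0 of the HoxA and HoxD genes, against 6 of the 9 HoxC genes. None of these 22 genes was called in limma, and 0, 7 and 2 of them in HoxA, HoxB and HoxD had an unadjusted p under 0.05. The differences between clusters were not tested.

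**Figure D4:**
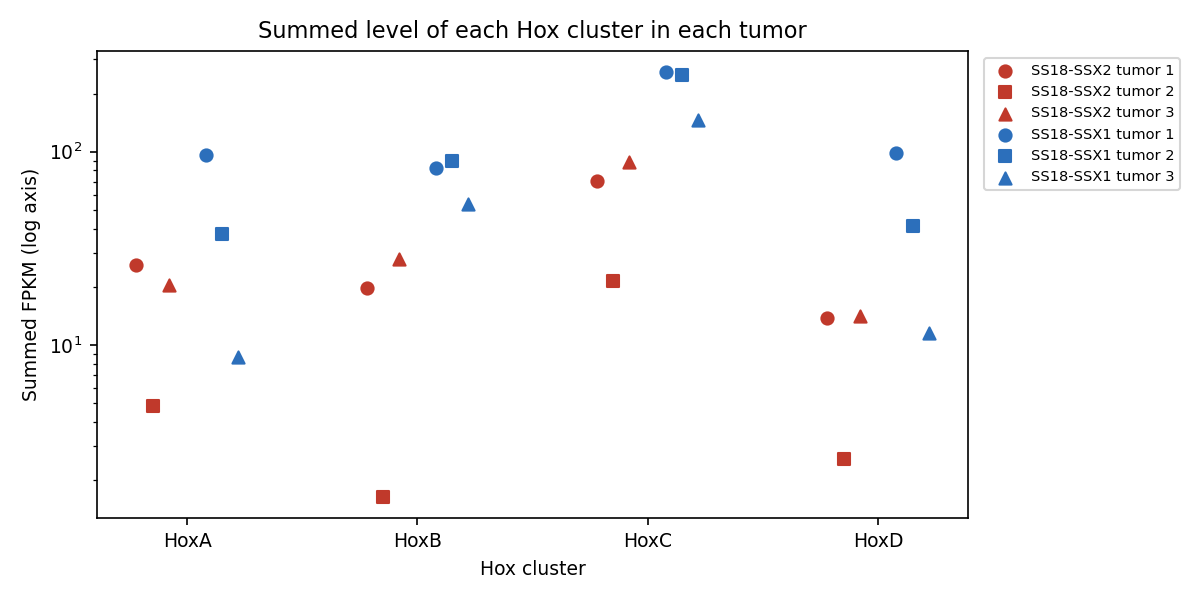
Summed FPKM (log axis) of each Hox cluster in each tumor, with SS18-SSX2 tumors in red to the left of SS18-SSX1 tumors in blue. The HoxC sums lie between 21.5 and 88.9 in SS18-SSX2 tumors and between 147 and 258 in SS18-SSX1 tumors, while the HoxA and HoxD sums overlap at SS18-SSX1 tumor 3.

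Within paralog groups, genes of the same number in different clusters that have overlapping roles, Hoxc12 was nearly the whole of its group. It held 92.5%, 96.2% and 95.4% of the FPKM of Hoxc12 and Hoxd12 in SS18-SSX2 tumors 1, 2 and 3, against 94.3%, 93.9% and 97.4% in SS18-SSX1 tumors 1, 2 and 3. Hoxc13, at the other extreme, held 9.53%, 29.3% and 14.05% of its group in SS18-SSX2 tumors 1, 2 and 3, against 12.6%, 30.4% and 13.4% in SS18-SSX1 tumors 1, 2 and 3. Each group counts only the genes in the table, which lacks Hoxb13 and Hoxd4, paralogs of Hoxc13 and Hoxc4. Hoxc10 held 57.7% or more of its group in every tumor and Hoxc11 67.0% or more. Shares of Hoxc9 in its group of 4 genes were 47.1%, 61.2% and 45.4% in SS18-SSX2 tumors 1, 2 and 3, against 29.8%, 35.0% and 48.7% in SS18-SSX1 tumors 1, 2 and 3. The shares of these 5 members overlapped between the genotypes, as did those of Hoxc4 and Hoxc8. Hoxc5 and Hoxc6 made up a larger share of their groups in every SS18-SSX2 tumor. Hoxc5 held 71.0%, 86.0% and 70.1% of its group in SS18-SSX2 tumors 1, 2 and 3, against 49.9%, 62.6% and 66.0% in SS18-SSX1 tumors 1, 2 and 3. For Hoxc6 the shares were 60.1%, 86.6% and 59.1% in SS18-SSX2 tumors 1, 2 and 3, against 51.0%, 49.0% and 53.7% in SS18-SSX1 tumors 1, 2 and 3. None of these shares was tested. In SS18-SSX2 tumor 2 the paralogs of Hoxc5 and Hoxc6 rest on few reads, 3 for Hoxa5, 1 for Hoxb5, 2 for Hoxa6 and 4 for Hoxb6. The reads of Hoxc5 are also uncertain where it overlaps Hoxc10.

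With the HoxC members themselves left out, the 8 tested genes whose profile over the 6 tumors was closest to the mean HoxC profile were Hoxb5, Hoxb7, Fgf10, Sox2, Hoxb8, Sema5a, Hoxb4 and Snai2. Likeness is the root mean square difference of centred log2(FPKM + 1) values over 6 tumors, and it ran from 0.13 for Hoxb5 to 0.34 for Snai2. Hoxb5 had 1.64, 0.0488 and 2.63 FPKM in SS18-SSX2 tumors 1, 2 and 3, against 6.86, 7.90 and 3.00 FPKM in SS18-SSX1 tumors 1, 2 and 3. In SS18-SSX2 tumor 2 the values of Hoxb5 and Hoxb7 rest on 1 read each, that of Hoxb8 on 3 and that of Hoxb4 on 4. Sox2, a transcription factor of stem and neural progenitor cells, had 20.1, 9.55 and 21.3 FPKM in SS18-SSX2 tumors 1, 2 and 3, against 40.7, 38.5 and 31.1 FPKM in SS18-SSX1 tumors 1, 2 and 3. Its groups did not overlap, and since it was picked for its likeness to the HoxC profile this is a description only (limma log2 fold change -1.14, SE 0.34, adjusted p = 0.681). Snai2, a repressor of epithelial genes, had 5.02, 2.09 and 5.32 FPKM in SS18-SSX2 tumors 1, 2 and 3, against 9.84, 14.8 and 11.4 FPKM in SS18-SSX1 tumors 1, 2 and 3. Fgf10, a growth factor of the limb bud, had 7.12, 2.06 and 8.22 FPKM in SS18-SSX2 tumors 1, 2 and 3, against 20.03, 15.1 and 6.44 FPKM in SS18-SSX1 tumors 1, 2 and 3. Its groups overlapped.

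Genes of the proteins that work with Hox factors or act on Hox loci were not called between the genotypes. Of 9 tested cofactors, which bind DNA together with Hox proteins, none was called and none had an unadjusted p under 0.05 in limma, with a median log2 fold change of -0.23. Of 19 Polycomb, Trithorax and related regulators none was called in limma and the median was -0.01. Among the 19, Bmi1 and Ring1 were lower without overlap in SS18-SSX2 tumors (2 genes) and Kdm6a was higher (1 gene). Of all 13873 tested genes, 521 were lower and 689 higher without overlap. Bmi1, a subunit of Polycomb repressive complex 1, was the only one of the 19 with an unadjusted p under 0.05, a share near the 4.97% of all tested genes that had one in either direction. It had 3.60, 3.11 and 1.75 FPKM in SS18-SSX2 tumors 1, 2 and 3, against 7.79, 9.21 and 11.8 FPKM in SS18-SSX1 tumors 1, 2 and 3, lower without overlap in SS18-SSX2 tumors (log2 fold change -1.49, SE 0.31, limma adjusted p = 0.413). Kdm6a, a demethylase that removes the Polycomb mark from histone H3, averaged 14.1 ± 3.64 FPKM in SS18-SSX2 tumors and 8.59 ± 2.64 FPKM in SS18-SSX1 tumors (SD, n = 3 each), higher without overlap in SS18-SSX2 tumors (log2 fold change 0.66, SE 0.30, limma adjusted p = 0.997).

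The libraries held 14529847, 7285853 and 14357648 recovered reads in SS18-SSX2 tumors 1, 2 and 3, against 13316363, 13767916 and 17546227 in SS18-SSX1 tumors 1, 2 and 3, so the tumor with the lowest HoxC values was also the shallowest. Depth itself is divided out in FPKM, and HoxC values rested on 14 to 1482 reads. RNA of skeletal muscle moved with that tumor too. All 22 muscle fibre genes of a marker list reached 1 FPKM in some tumor, and their summed FPKM was 126, 5631 and 158 in SS18-SSX2 tumors 1, 2 and 3, against 359, 12519 and 549 in SS18-SSX1 tumors 1, 2 and 3. Both muscle-rich tumors carry the number 2, one of each genotype, and HoxC was low in that of SS18-SSX2 and not in that of SS18-SSX1. Without both of them the median HoxC log2 fold change was -1.13, and Hoxc5, Hoxc8, Hoxc10 and Hoxc13 were at -0.34, -0.73, -1.19 and -0.24 in that order. Leaving tumors out cannot make separated groups overlap, so the absence of overlap in the same 6 genes is no check. A fit that also held the mean muscle level of each tumor gave a median of -1.70. Without SS18-SSX2 tumor 2 alone it was -1.10. In bulk RNA fewer cells that express HoxC genes and less HoxC RNA per cell cannot be told apart.

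Other markers moved with the tumors as well, and their part in the HoxC values was not tested beyond the measurements given here. The 8 mast cell markers, all detected at 1 FPKM or more in some tumor, summed to 13.8 to 63.8 FPKM in SS18-SSX2 tumors and to 64.9 to 2519 FPKM in SS18-SSX1 tumors, where tumor 3 was the highest, so these sums did not overlap either. The 8 B and plasma cell markers, all detected, summed to 8.62, 980.2 and 9.97 FPKM in SS18-SSX2 tumors 1, 2 and 3, against 5.13, 119 and 9.48 FPKM in SS18-SSX1 tumors 1, 2 and 3. For these markers SS18-SSX2 tumor 2 was the highest of all tumors. The 10 pericyte and smooth muscle markers, all detected, summed to 136 to 238 FPKM in SS18-SSX2 tumors and to 73.4 to 276 FPKM in SS18-SSX1 tumors. Of these, Acta2, smooth muscle actin, was among the 9 called genes, with 28.4, 19.96 and 22.4 FPKM in SS18-SSX2 tumors 1, 2 and 3, against 3.58, 5.10 and 3.58 FPKM in SS18-SSX1 tumors 1, 2 and 3 (limma adjusted p = 0.0474, and 0.0222 to 0.392 over 20 other settings, 16 of which did not call it). Tagln, another smooth muscle gene, averaged 12.9 ± 6.19 FPKM in SS18-SSX2 tumors and 3.90 ± 1.87 FPKM in SS18-SSX1 tumors (SD, n = 3 each), also without overlap and not called. The 8 endothelial markers, all detected, summed to 29.5 to 110.4 FPKM in SS18-SSX2 tumors and to 16.8 to 93.7 FPKM in SS18-SSX1 tumors, and the 6 adipocyte markers, 5 of them detected, to 0.559 to 38.0 FPKM in SS18-SSX2 tumors and to 1.67 to 74.2 FPKM in SS18-SSX1 tumors. The 10 macrophage markers, all detected, summed to 149 to 638 FPKM in SS18-SSX2 tumors and to 51.0 to 403 FPKM in SS18-SSX1 tumors, and the 12 fibroblast and tendon markers to 220 to 225 FPKM in SS18-SSX2 tumors and to 122 to 288 FPKM in SS18-SSX1 tumors. Of 17 epidermis and hair markers, 5 are in the table and 3 reached 1 FPKM in any tumor, with sums of 0.960 to 6.17 FPKM in SS18-SSX2 tumors and 0.917 to 20.8 FPKM in SS18-SSX1 tumors. Of 12 synovial sarcoma markers, 11 are in the table, all of them detected. They summed to 263 to 335 FPKM in SS18-SSX2 tumors and to 288 to 291 FPKM in SS18-SSX1 tumors. Within this list Sox2 was lower and Tle1 higher without overlap in SS18-SSX2 tumors, and neither was called in limma. With no normal tissue or other tumor type to compare, these sums do not check tumor identity. Ddx3y, a gene of the Y chromosome, was at 0.0148, 0 and 0 FPKM in SS18-SSX2 tumors 1, 2 and 3, against 35.1, 28.2 and 35.2 FPKM in SS18-SSX1 tumors 1, 2 and 3. Fusion genotype and expression from the Y chromosome therefore cannot be told apart in any HoxC difference. The same holds for every other difference between the genotypes given here, that of Kdm6a among them.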

How the data were processed

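Total RNA of snap-frozen tumors was extracted with RNeasy kits and sequenced from Ribo-Zero libraries, per the labels' protocols. The authors deposited 1 table of FPKM values, with 1 column per tumor. The submitters' processing notes name Novoalign 2.08.03 and the build mm10, in roles not stated. The sources used here do not give the counting tool, strand handling or gene models.

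Columns were matched to tumors by the samples' descriptions and 17029 of 17312 identifiers to symbols of GENCODE mouse release 21 on GRCm38, the assembly that mm10 names. Genes with at least 1 FPKM in at least 3 tumors (13873) were put on the log2 scale after adding 1 and compared by limma (version 3.58.1 under R 4.3.3), which fits all genes and moderates their variances along a trend with mean level. The test was two-sided, SS18-SSX2 minus SS18-SSX1, and p-values were adjusted over the tested genes by the Benjamini-Hochberg method. A pseudocount of 1 understates the change of low genes. The code was tested on simulated data. FPKM is scaled to each library's total, so a large share of 1 RNA class lowers other values.

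Reads were recovered from the steps between low FPKM values. Of 17312 genes, 17311 (99.994%) gave whole reads within 0.02 reads (or 2e-06 of a large count), 8737 with their annotated length and 8574 with the smallest length that gave whole reads. Of the members 6 took their annotated length and 3 (Hoxc4, Hoxc6 and Hoxc8) another. Hotair and Mir196a-2 also took another, 2696 and 110 bases against 2006 and 85 annotated. Where another length was taken, the reads given are the smallest counts that fit. Recovered reads served for depth, for counting intervals (exact Poisson) and for 1 alternative, limma's voom, which called 6 genes. One read in 1 kb was worth 0.0570 to 0.137 FPKM.

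Homeobox and UTR sequences came from GENCODE transcripts and microRNAs from RefSeq. Named genes were all members, the genes inside the cluster, the 5 nearest protein-coding genes of the table on each side, up to 4 genes of each context list and the 8 genes with the likest profile, and the text gives those of most use. The HoxA, HoxB and HoxD sums and Ddx3y were added for context. The members and lists were chosen with earlier results of these data known. Other software was numpy 2.4.6, pandas 2.3.3 and, for plots, matplotlib 3.10.9, under Python 3.11.15. Alternatives were other pseudocounts, filters, scalings and eBayes options, weights per tumor, a muscle covariate, a replicate block, and fits without each tumor or without both muscle-rich tumors.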

Additional observations from a re-analysis of the deposited data

How the results depend on the processing

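All 9 HoxC genes kept a lower level in SS18-SSX2 tumors in all 20 other settings where they were tested, and limma called 0 of them in each, with adjusted p of 0.209 or more. Their median log2 fold change stayed between -1.90 (a minimum mean of 5 FPKM, with 7 of the 9 tested) and -1.10. Without each tumor in turn it was -1.81 to -1.10, 0 members were called, and groups without overlap were found for 6 to 9 members. Leaving a tumor out cannot make separated groups overlap, so 6 was the least possible. All 9 separated without SS18-SSX1 tumor 3, but smaller groups separate more easily. The share of all tested genes that separated at that size was not counted. After rescaling to TPM 5 separated, without Hoxc4. By gene the value moved by over 1.5 times for Hoxc5, Hoxc8, Hoxc10 and Hoxc13 only, as given in the report. The number of all genes called, 9, was 5 with a pseudocount of 0.1, 16 with weights per tumor and 20 without both muscle-rich tumors, and 3 (without SS18-SSX2 tumor 3) to 11 (without SS18-SSX2 tumor 2) when 1 tumor was left out. The cause was not tested. With tumors paired by number as a replicate block, 4 genes and 0 HoxC genes were called. Deviations of same-numbered tumors correlated at 0.38, 0.31 and -0.28, and those of the other pairs across genotypes at -0.44 to 0.23. Deviations from a mean of 3 tumors depend on each other, so these values do not decide whether the numbers pair the tumors. In the labels both tumors 2 share the prefix A and both tumors 3 the prefix B, with no meaning stated. With 3 tumors per genotype, the depth of SS18-SSX2 tumor 2 limits Hoxc13, Hotair and Mir196a-2 most among the genes of the HoxC cluster.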

Other observations

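Of 11 tested limb position factors none was called and none had an unadjusted p under 0.05 in limma, with a median log2 fold change of -0.02. Within a genotype some were steady, such as Tbx2 with 54.6 to 86.6 FPKM in SS18-SSX2 tumors and 54.7 to 121 FPKM in SS18-SSX1 tumors and Gli3 with 10.4 to 18.6 FPKM in SS18-SSX2 tumors and 10.9 to 20.8 FPKM in SS18-SSX1 tumors, and others varied widely. Apart from Tbx5, the genes named here were chosen after their values were seen. Pitx1, which gives the hindlimb its identity, had 1.66, 75.2 and 3.49 FPKM in SS18-SSX2 tumors 1, 2 and 3, against 9.09, 4.57 and 40.9 FPKM in SS18-SSX1 tumors 1, 2 and 3. Tbx4, a hindlimb gene downstream of Pitx1, had 1.09, 3.63 and 1.27 FPKM in SS18-SSX2 tumors 1, 2 and 3, against 0.199, 0.961 and 8.73 FPKM in SS18-SSX1 tumors 1, 2 and 3. Tbx5, the forelimb counterpart, had 1.08, 11.6 and 0.937 FPKM in SS18-SSX2 tumors 1, 2 and 3, against 0, 0.111 and 2.31 FPKM in SS18-SSX1 tumors 1, 2 and 3. SS18-SSX2 tumor 2, the lowest for 8 of the 9 HoxC genes, had the highest Pitx1 and Tbx5 values of the 6 tumors.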
